A study of Mus musculus with 16 samples.

Results

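Hematopoietic stem cells (HSC) of mitochondrial mutator mice were compared with those of wild-type mice of the same age. The comparison used the 3 arrays titled Mutator and the 3 titled WT HSC, chosen by their titles alone, which are 6 of the 16 arrays in the series. Both groups came from the bone marrow of C57Bl6 mice of 32 weeks labelled female, and they differed in genotype, Polgtm1Lrsn-/- in the mutator and Polgtm1Lrsn+/+ in the wild type. The labels give no further allele and no treatment for either group, and they do not say whether a sample was 1 mouse or a pool. The other arrays held HSC of young (9 to 12 weeks) and old (24 months) wild-type mice, 3 of each, and 4 arrays of lymphoid progenitors. Sorted cells were taken directly for RNA, and per the labels 4000 to 7000 of them supplied the cRNA of an array. Each value is an intensity, the brightness of an Affymetrix probe set on a linear scale, and changes are differences of log2(intensity + 16), mutator minus wild type.

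Polg encodes the catalytic subunit of the polymerase that copies mitochondrial DNA. In mutator mice its proofreading activity is lost in every tissue, so point mutations build up in mitochondrial genomes with each round of copying, and the animals become anemic and age early. HSC rest for long periods, rely largely on glycolysis while resting and draw on mitochondrial respiration when they begin to divide and differentiate. The mitochondrial genome supplies core subunits of respiratory complexes I, III, IV and V, while all other mitochondrial proteins, including those that maintain its DNA, come from nuclear genes.

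The arrays were checked against their labels before any result was drawn. All 12 stem cell markers of the list that the array names (such as Kit, Procr, Hlf, Mecom and Fgd5) lay above background, taken as the 40th percentile of an array, on all 6 arrays, and their summed intensity was 13230 to 16370. Wild-type replicate 3 went against its label of female: Xist, the RNA of the inactive X chromosome, stood at 9.12 there and at 7839 to 11020 on the other 5 arrays, while Eif2s3y on the Y chromosome stood at 551.9 there and at no more than 12.7 on the others. Gene counts, some genes and some lists are therefore also given without that array. All other values are from all 6 arrays and may depend on it. The 3 prime to 5 prime ratio of actin, a sign of RNA length after labelling, was 4.20 to 5.19 on the log2 scale in these 6 arrays and 2.19 to 2.60 in the young and old arrays. Control RNA added at hybridisation was brighter on replicate 1 of both groups (mean log2 12.8 and 12.6) than on the other 4 arrays (10.7 to 11.3). The neutrophil markers summed to 526, 3976 and 5368 in mutator and to 567, 1782 and 6529 in wild-type replicates 1, 2 and 3, so that sorted cells of both groups held a varying amount of neutrophil RNA. In RNA of many cells, fewer cells of a type and less RNA per cell cannot be told apart.

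No gene was called between mutator and wild-type HSC. Of 12915 genes tested, 0 (0%) had an adjusted p under 0.05 with limma, where the smallest adjusted p was 0.9999. At an unadjusted p under 0.05 there were 300 genes (2.32%), 185 (1.43%) higher and 115 (0.890%) lower in the mutator. That share is below the 0.05 which the threshold alone would pass among genes with no change. The 3 mutator arrays did not overlap the 3 wild-type arrays for 798 genes (6.18%), with the mutator above for 410 (3.17%) and below for 388 (3%). Among genes with no change, a share of 0.1 would be separated in this way. The fitted change was above 0 for 6372 genes (49.3%), and it was at least 2-fold upward for 68 (0.527%) and downward for 15 (0.116%). The values below are therefore changes with their intervals, none of which is a call.

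**Figure D1:**
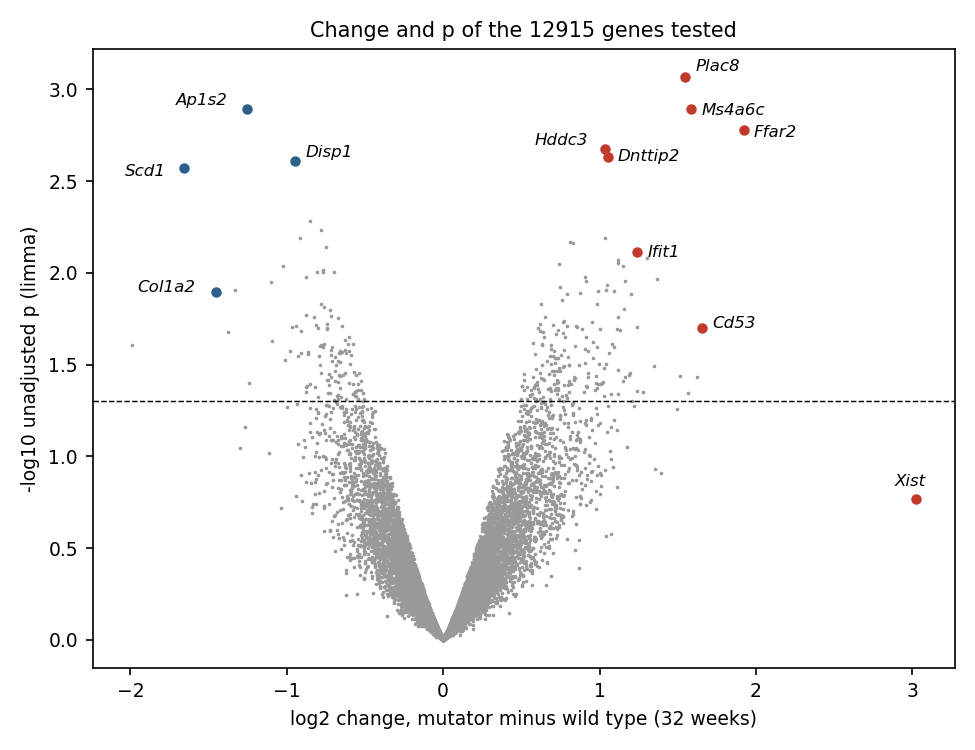
Each point is 1 of the 12915 genes tested. The horizontal axis is the log2 change, mutator minus wild-type HSC, and the vertical axis is -log10 of the unadjusted p of limma, with a dashed line at the 0.05 threshold. Plac8 has the smallest p, and Xist, at the right, has the widest interval, since wild-type replicate 3 differs from its companions there.

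The width of the unadjusted intervals shows how precisely the 6 arrays estimated a change, gene by gene. The median standard error (SE) of a gene was 0.28 log2 units, and the median 95% interval reached 0.65 log2 units to either side of the estimate. For 8272 genes (64%) the whole interval lay within 1 log2 unit of 0, that is, within a 2-fold change. The central 90% of fitted changes ran from -0.46 (5th percentile) to 0.56 (95th percentile). Replicates of the wild type were farther apart (median SD 0.37 log2 units) than those of the mutator (0.26). Among the 15 pairs of arrays the closest was a pair across the groups, mutator replicate 3 and wild-type replicate 2, with a median absolute difference of 0.18 log2 units against 0.23 to 0.51 for pairs within a group. The 2 most distant pairs within a group both held wild-type replicate 1.

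Each array was then left out in turn, and no gene was called in any of these 6 fits. The number of genes with an unadjusted p under 0.05 ran from 155 without mutator replicate 2 to 879 without wild-type replicate 2. The balance of directions moved with the array left out. Leaving out wild-type replicate 2 gave 722 genes higher and 157 lower, and leaving out wild-type replicate 1 gave 108 higher and 385 lower. Leaving out wild-type replicate 3, the array that goes against its label, gave 120 higher and 94 lower. All 300 genes kept their sign in the 6 fits, and 44 of them (27 higher and 17 lower) kept an unadjusted p under 0.05 in every one. These 44 include all 24 genes shown in the plot of leading genes by array. All 300 were chosen by their p on these same arrays, so the kept signs and p values are no independent evidence.

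The 3 smallest p values upward belonged to Plac8, Ms4a6c and Ffar2, all expressed in myeloid cells. Plac8 (chromosome 5), a small cysteine-rich protein abundant in myeloid and lymphoid progenitors, stood at 1337, 1370.4 and 2121 in mutator replicates 1, 2 and 3 and 730.1, 444 and 451 in wild-type replicates 1, 2 and 3. Every mutator array lay above every wild-type array, with means of 1609 ± 443 in mutator and 541 ± 163 in wild-type HSC (SD, n = 3 each). The change was 1.55 ± 0.30 (log2 ± SE, 95% interval 0.86 to 2.23), and it ran from 1.34 to 1.78 with any 1 array left out. Ms4a6c (chromosome 19), a tetraspan membrane protein of myeloid cells, was at 298, 201 and 433 in mutator and 68.6, 82.8 and 119 in wild-type replicates 1, 2 and 3. Its groups did not overlap either, and the change was 1.59 ± 0.32 (interval 0.84 to 2.33, 1.33 to 1.85 with 1 array left out). A second probe set of Ms4a6c above the filter gave 0.06 ± 0.33. Ffar2 on chromosome 7 encodes a leukocyte receptor that senses short-chain fatty acids. It was at 785, 356 and 834 in mutator and 95.8, 155 and 228 in wild-type replicates 1, 2 and 3. Its change was 1.92 ± 0.41 (interval 0.97 to 2.87), and a second probe set of the gene gave 0.95 ± 0.29. Cd53, a tetraspanin of leukocytes, was at 179, 199 and 410.4 in mutator and 17.5, 116 and 112 in wild-type replicates 1, 2 and 3. There wild-type replicate 1 was far below its 2 companions, and without it the change of 1.66 became 1.003.

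**Figure D2:**
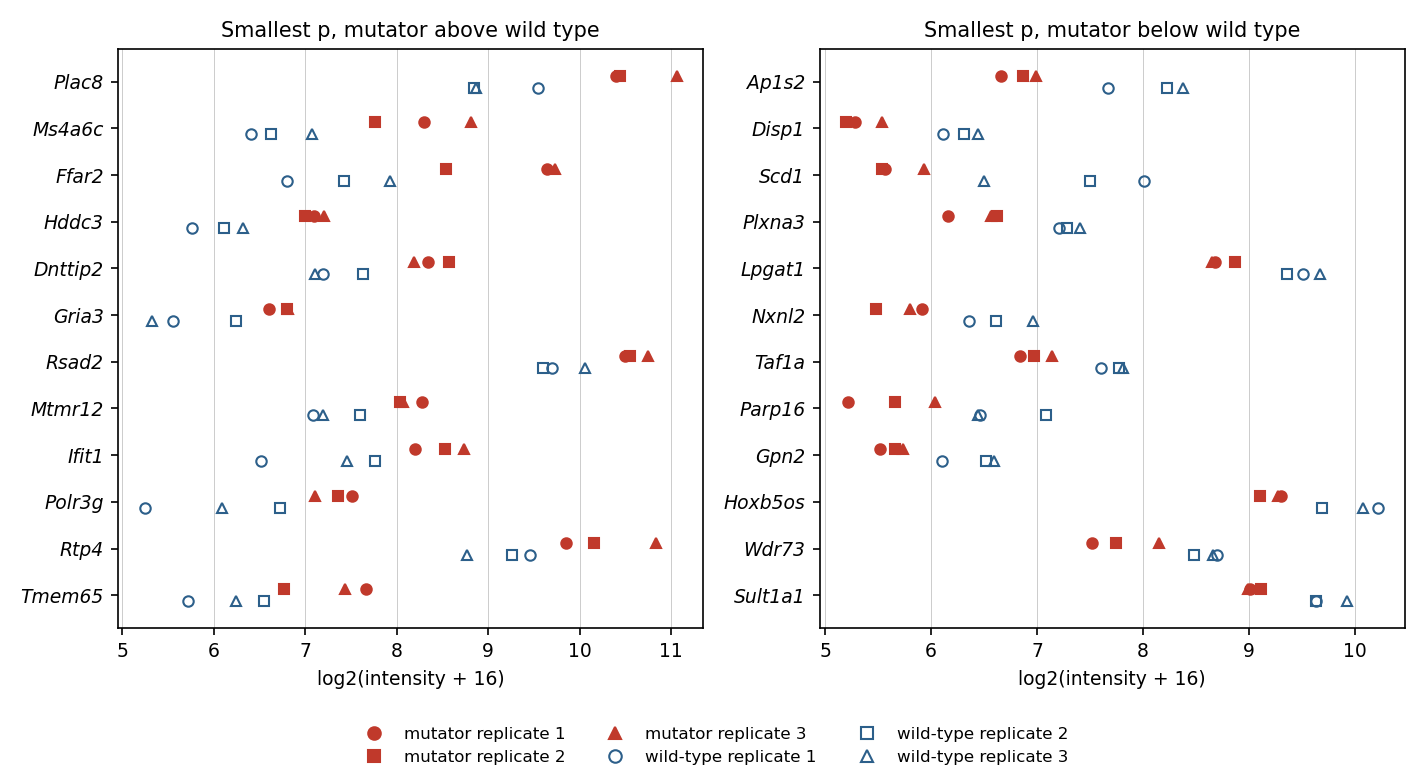
Points are single arrays, filled for mutator and open for wild type, with the shape giving the replicate. The horizontal axis is log2(intensity + 16); the left panel holds the 12 genes of smallest p above and the right panel the 12 below wild type among genes whose groups of 3 do not overlap. Groups are separated by choice of the genes, so a reader should see the size of the gap and the spread, with wild-type replicate 1 often farthest out on the left.

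The remaining genes of smallest p upward had varied roles. Hddc3 (an HD-domain phosphohydrolase, 1.03 ± 0.23), Dnttip2 (a binding partner of terminal deoxynucleotidyl transferase, 1.05 ± 0.24) and Gria3 (a glutamate receptor subunit, 1.03 ± 0.28) each lay above wild type on all 3 mutator arrays. For all 3 of these genes a second probe set above the filter gave a change near 0: -0.09 for Hddc3, -0.03 for Dnttip2 and 0.06 for Gria3. Mtmr12, an inactive relative of the myotubularin lipid phosphatases, was at 293, 247 and 252 in mutator and 119.9, 178 and 131 in wild-type replicates 1, 2 and 3, a change of 0.83 ± 0.23. Polr3g, a subunit of RNA polymerase III, was at 166, 149 and 122 in mutator and 21.9, 89.7 and 52.3 in wild-type replicates 1, 2 and 3. Wild-type replicate 1 was again lowest, and the change of 1.31 ± 0.37 ran from 0.92 to 1.66 with 1 array left out. Tmem65, a protein of the inner mitochondrial membrane, had 1.12 ± 0.32 (interval 0.37 to 1.86), and its second probe set gave -0.03 ± 0.20. Among the largest fitted changes, those of Znrf2, a ubiquitin ligase (1.62 ± 0.64), and Fam126b, part of a complex that anchors a lipid kinase at the membrane (1.35 ± 0.52), had wide intervals, 0.13 to 3.11 and 0.15 to 2.54. In both, wild-type replicate 1 was the low array, at 31.2 for Znrf2 and 55.5 for Fam126b. The other probe sets of Znrf2 above the filter gave -0.05, -0.05, 0.53 and 0.54, and those of Fam126b -0.39, 0.32 and 0.33.

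Genes lower in the mutator were led by a clathrin adaptor subunit and a lipid enzyme. Ap1s2 (X chromosome), the small subunit of the AP-1 adaptor that sorts vesicle cargo, was at 85.1, 101 and 111 in mutator replicates 1, 2 and 3 and 188, 283 and 317 in wild-type replicates 1, 2 and 3. No mutator array reached the lowest wild-type array, and the change was -1.25 ± 0.26 (interval -1.85 to -0.66, -1.47 to -1.11 with 1 array left out). Of its other probe sets above the filter, 1 gave -1.003 ± 0.28 and 1 gave 0.02 ± 0.31. Scd1 (chromosome 19), the desaturase that makes monounsaturated fatty acids, was at 31.2, 30.4 and 45.2 in mutator replicates 1, 2 and 3 and 242, 165 and 74.6 in wild-type replicates 1, 2 and 3. All mutator arrays were dim, against a background of 17.8 to 19.8, and the wild-type arrays lay far apart, with replicate 3 the lowest. The change was -1.66 ± 0.38 (interval -2.55 to -0.77) with all arrays and -2.08 without wild-type replicate 3, while a second, dimmer probe set gave 0.06 ± 0.20.

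The remaining genes of smallest p downward had varied roles. Disp1, which releases Hedgehog ligands from cells, was at 22.9, 20.7 and 30.3 in mutator and 53.2, 63.2 and 70.9 in wild-type replicates 1, 2 and 3, a change of -0.95 ± 0.22, against -0.14 for a second probe set. Lpgat1, an acyltransferase of phospholipid synthesis, was at 394, 454 and 387 in mutator and 716, 643 and 803 in wild-type replicates 1, 2 and 3 (-0.78 ± 0.21), but its other 3 probe sets above the filter gave 0.47, -0.40 and 1.33. Changes of Plxna3 (a semaphorin receptor), Nxnl2 (a thioredoxin-like protein), Taf1a (a subunit of the RNA polymerase I selectivity factor), Parp16 (an ADP-ribosyltransferase of the endoplasmic reticulum), Gpn2 (a small GTPase) and Wdr73 (a WD-repeat protein) were -0.85, -0.91, -0.75, -1.03, -0.77 and -0.81; second probe sets gave -0.12 for Plxna3 and -0.22 for Wdr73. Hoxb5os, the transcript opposite the stem cell gene Hoxb5, was at 615, 537 and 605 in mutator and 1179, 812 and 1068 in wild-type replicates 1, 2 and 3, a change of -0.77 ± 0.23, whereas Hoxb5 itself had 0.55 ± 0.23 and stood above wild type on all mutator arrays. Sult1a1, a sulfotransferase, was at 499, 538 and 493 in mutator and 781, 778 and 961 in wild-type replicates 1, 2 and 3, a change of -0.70 ± 0.21 (interval -1.17 to -0.22). Larger fitted changes with wider intervals were those of Col1a2 (a collagen chain of stroma, -1.45 ± 0.45), Apob (the lipoprotein carrier, -1.37 ± 0.48), Slc25a13 (the mitochondrial aspartate-glutamate carrier, -1.33 ± 0.41) and Pan2 (a deadenylase, -1.10 ± 0.33). Second probe sets gave -0.28 for Col1a2 and 0.04 for Apob. Apob was at 8.45, 19.7 and 21.2 in mutator and 86.5, 22.2 and 129 in wild-type replicates 1, 2 and 3. Its mutator arrays were near or below their background of 17.8 to 19.8, with wild-type replicate 2 close to them. Without wild-type replicate 3 the change of Apob was -0.97. All 24 genes of smallest p, 12 in each direction, had an unadjusted p under 0.05 without wild-type replicate 3. Their sign could not turn, since they were chosen for groups that do not overlap. They were also chosen by p on these arrays, so the kept p is no independent evidence.

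Most interferon response genes had a fitted change above 0, again with no call. Interferons act through the Jak1 and Tyk2 kinases and a transcription factor complex that includes Irf9 and binds the interferon-stimulated response element (ISRE), whose core is a repeat of GAAA. Mitochondrial DNA or RNA that leaks into the cytosol can start this response through sensors such as Cgas and Ifih1. To show the element, the core (GAAA, any 2 bases, GAAA) was searched on both strands in the 250 bases upstream of RefSeq start sites (GRCm38.p6). At least 1 promoter held it for 936 of 27025 genes (3.46%) and for 12 of the 24 tested interferon effectors that have an entry in the table (50%). Counted by promoter, 978 of 32851 (2.98%) held it. Stretches are shown for Ifit1 and Rsad2, the members described next that have an entry in the table, with each match in capitals, read 5′ to 3′ on the strand of the gene. In both the match is the core read on the opposite strand. The Ifit1 stretch lies at chr19:34640760-34640819 on the plus strand and its matches begin 104 and 85 bases upstream of the start; the Rsad2 stretch lies at chr12:26456538-26456597 on the minus strand with a match 120 bases upstream.
Ifit1: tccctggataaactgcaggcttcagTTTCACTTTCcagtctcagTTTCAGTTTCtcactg
Rsad2: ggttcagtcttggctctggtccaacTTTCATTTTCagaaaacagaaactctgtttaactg

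Ifit1, which binds foreign RNA at its 5′ end, was at 277, 353 and 409 in mutator replicates 1, 2 and 3 and 75.6, 201 and 159 in wild-type replicates 1, 2 and 3. Both groups were separated, with wild-type replicate 1 lowest by far, and the change was 1.24 ± 0.35 (interval 0.43 to 2.05, 0.88 to 1.5 with 1 array left out). Rsad2 (viperin, an antiviral enzyme that makes a chain-terminating nucleotide) was at 1425, 1483 and 1702 in mutator and 816, 758 and 1047 in wild-type replicates 1, 2 and 3. The mutator arrays lay close together above all wild-type arrays, a change of 0.81 ± 0.22 (interval 0.30 to 1.33); its other 2 probe sets, both dimmer, gave 0.14 and -0.06. Rtp4, an interferon-induced chaperone of receptors, was at 904, 1124 and 1812 in mutator and 686, 596 and 419.9 in wild-type replicates 1, 2 and 3. Its groups were also separated, and the change of 1.12 ± 0.32 was 0.92 without wild-type replicate 3.

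Of 57 tested genes of the interferon list, 43 had a change above 0, against 49.3% of all genes, and the median was 0.20 against -0.004 over all genes. An unadjusted p under 0.05 upward was found for 7 members (12.3%, against 1.43% of all genes) and downward for 0. The groups did not overlap upward for 9 members (15.8%, against 3.17%) and downward for 0. The list was written with an earlier result for these arrays known, so its direction is no independent evidence. By role, 29 of 34 effectors were above 0 (median 0.34), 5 of 9 nucleic acid sensors (median 0.06) and 9 of 14 regulators (median 0.05). Beside the 3 effectors above, the unadjusted p was under 0.05 for Trim25 (a ubiquitin ligase that activates RIG-I, 0.74 ± 0.21), Gbp3 (a guanylate-binding GTPase, 0.99 ± 0.38), Ifi27 (a mitochondrial interferon-induced protein, 0.71 ± 0.30) and the regulator Irf9 (0.62 ± 0.26), named here after their values were seen. Other probe sets above the filter gave 1.15 and 0.43 for Trim25 and 0.96 for Ifi27. Irf7, the factor that amplifies interferon production, was at 98.4, 138 and 191 in mutator and 96.1, 71.0 and 92.5 in wild-type replicates 1, 2 and 3 (0.59 ± 0.27, without overlap). The sensors Cgas and Ifih1 had 0.20 and 0.24, and the kinase Jak1 had -0.56, with -0.09 and 0.17 from its other probe sets. Other classical members, also chosen after their values were seen, lay nearer 0: Oas1a 0.13, Mx1 0.09, Ifitm3 0.23 and Xaf1 0.07 (0.36 from a second probe set). The median of the list stayed above 0 with any 1 array left out, from 0.05 without wild-type replicate 1 to 0.31 without wild-type replicate 3. By array, the mean log2 level of the list was 8.04, 8.31 and 8.58 in mutator and 7.75, 8.19 and 8.24 in wild-type replicates 1, 2 and 3. The groups overlapped in this mean, with mutator replicate 1 below wild-type replicates 2 and 3. Wild-type replicate 1 was lowest, both for this list and for all genes tested.

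**Figure D3:**
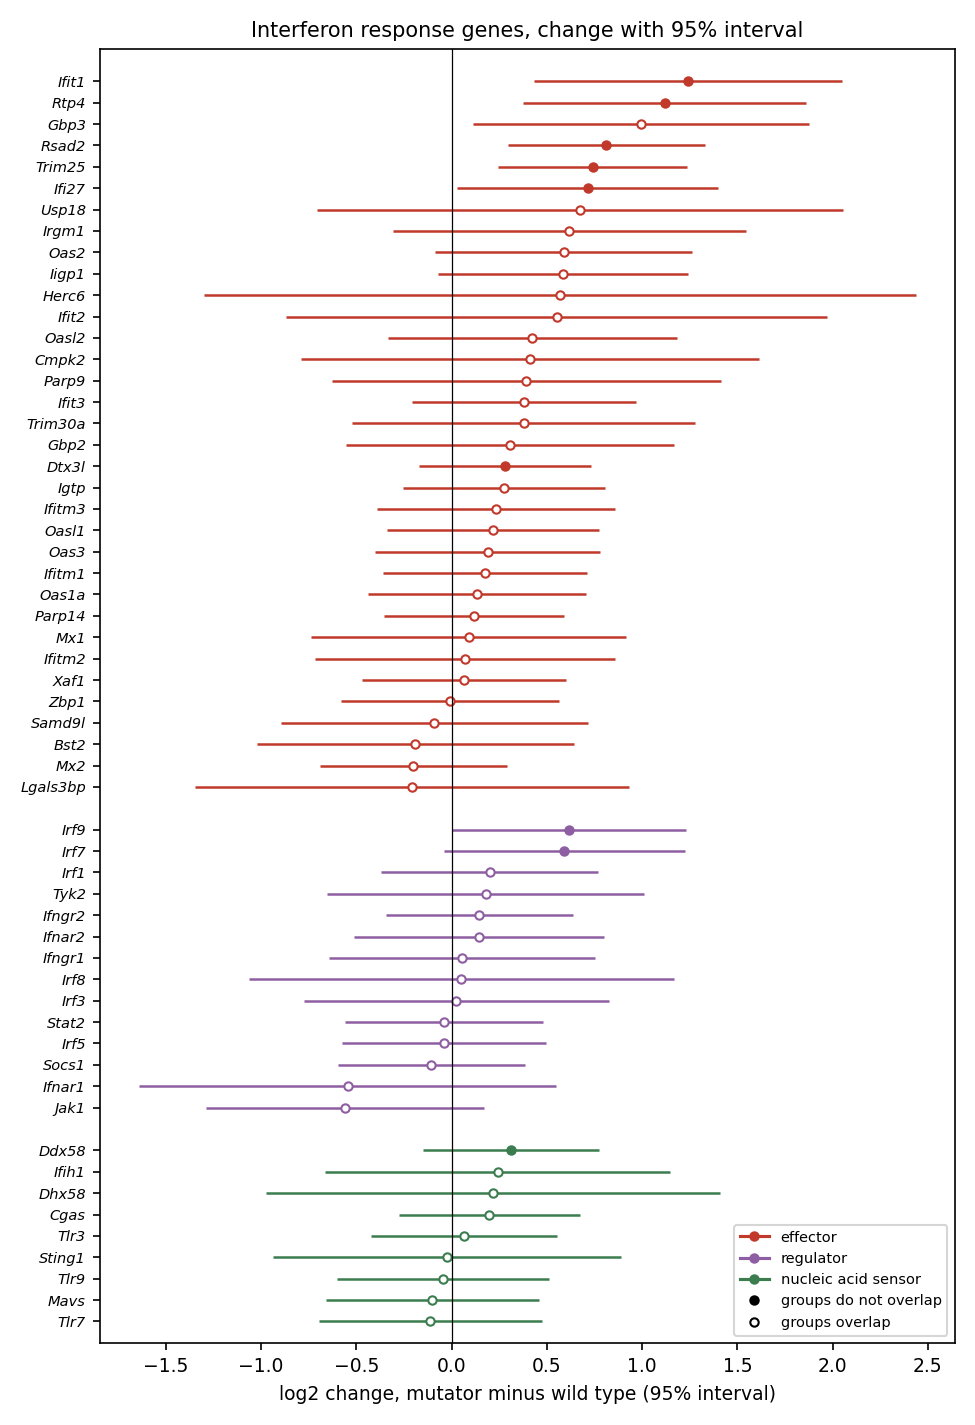
Each row is 1 of the 57 tested interferon response genes, grouped by role, with its log2 change (mutator minus wild type) on the horizontal axis and its 95% interval as a line. Filled points mark genes whose 3 mutator and 3 wild-type arrays do not overlap. Of the 34 effectors 29 lie above 0, and most intervals include 0.

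Transcripts that copy and maintain mitochondrial DNA were above 0 for 17 of 28 genes with a median of 0.07, and for 14 of 28 with a median of -0.01 without wild-type replicate 3. Without mutator replicate 3 the median was -0.09. The array reads the 3 prime end of Polg, so its level says nothing about the point mutation and does not check the genotype. The 3 probe sets of Polg disagreed, with changes of 0.39 ± 0.41 for the brightest and -0.47 ± 0.28 and -0.50 ± 0.33 for the others. Polg2, the accessory subunit that holds Polg on DNA, had -0.37 ± 0.41, and Twnk, the helicase of the replication fork, had -0.20 ± 0.20. Of 12 replication genes 4 were above 0 (median -0.22). Endog was the 1 member of the 28 maintenance genes with an unadjusted p under 0.05 (3.57% downward, against 0.890% of all genes). This nuclease of the mitochondrial intermembrane space was at 169, 171 and 241 in mutator and 275, 278 and 404 in wild-type replicates 1, 2 and 3. Its groups did not overlap, and the change was -0.67 ± 0.25 with all arrays and -0.50 without wild-type replicate 3, while a second probe set gave -0.11. Of 9 transcription genes 7 were above 0 (median 0.15), led by Mterf3, a repressor of mitochondrial transcription (0.92 ± 0.54), and Tfam, which packages mitochondrial DNA and starts its transcription. Tfam was at 373, 465 and 513 in mutator and 233, 416 and 258 in wild-type replicates 1, 2 and 3, with wild-type replicate 2 within the range of the mutator, and the change was 0.58 ± 0.28 (interval -0.06 to 1.22). A second probe set of Tfam gave -0.04. Genes of nucleotide supply were above 0 for 6 of 7 (median 0.09). The single mitochondrially encoded transcript that the annotation names, ND5 of complex I, was at 3464, 2627 and 3237 in mutator and 1819, 4168 and 4970.3 in wild-type replicates 1, 2 and 3. Its groups overlapped widely (-0.12 ± 0.38), and the sign turned without wild-type replicate 2 or 3.

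Nuclear genes of the respiratory chain had a median change slightly below 0, smaller than the median SE of a gene. Of 71 tested members 26 were above 0 and the median was -0.11, which ran from -0.20 without mutator replicate 3 to -0.02 without wild-type replicate 2. None had an unadjusted p under 0.05, the groups did not overlap downward for 7 (9.86%, against 3% of all genes) and upward for 0, and the 95% interval lay within 1 log2 unit of 0 for 47 (66.2%, against 64%). Complex I, the entry point of electrons from NADH, had medians of -0.36 over its 6 core subunits and -0.07 over 26 accessory subunits. Without mutator replicate 1 these medians were -0.03 and -0.04. Ndufs7, a core subunit that carries an iron-sulfur cluster, was at 2709, 2042 and 2111 in mutator and 3661, 2587 and 3840.1 in wild-type replicates 1, 2 and 3, a change of -0.54 ± 0.25. Only mutator replicate 1 reached into the wild-type range, and a second probe set of Ndufs7 gave -0.65 ± 0.26 without overlap. Ndufa7, an accessory subunit, was at 425, 301 and 443 in mutator and 547, 489.8 and 597 in wild-type replicates 1, 2 and 3, with no overlap and a change of -0.48 ± 0.23 (interval -1.02 to 0.06). Medians were 0.13 for the 4 genes of complex II, which has no mitochondrially encoded subunit, -0.15 for complex III with cytochrome c (10 genes), -0.11 for complex IV (10 genes) and 0.10 for complex V (15 genes). Atp5h, a stalk subunit of the ATP synthase in complex V, was at 3733, 5343 and 5634 in mutator and 3745, 2993 and 3676 in wild-type replicates 1, 2 and 3 (0.48 ± 0.24), with mutator replicate 1 inside the wild-type range. A second probe set of Atp5h gave 0.86 ± 0.27 without overlap. Without wild-type replicate 3 the medians of complexes II and V turned to -0.12 and -0.22, while that of the whole chain was -0.18. Assembly factors had a median of -0.02 over 32 genes, and Cox11, which delivers copper to complex IV, had 0.75 ± 0.34.

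Other parts of the mitochondrial machinery gave small and mixed values. Of 76 mitochondrial ribosomal proteins 25 were above 0, with a median of -0.08. The groups did not overlap downward for 7 (9.21%, against 3%), of which Mrps24 had -0.56 ± 0.25, while the unadjusted p was under 0.05 upward for 2 (2.63%, against 1.43% of all genes), Mrpl18 (0.80 ± 0.33) and Mrps30 (0.72 ± 0.30). In both of the latter, wild-type replicate 2 overlapped the mutator arrays. Protein import genes were above 0 for 10 of 23 (median -0.13). Among 15 chaperones and proteases the median was 0.19, but it turned to -0.06 without wild-type replicate 1. Hspa9, the chaperone that pulls proteins into the matrix, was at 1875, 2107 and 2303 in mutator and 1295, 1839.6 and 1103 in wild-type replicates 1, 2 and 3. All mutator arrays were above wild type, though replicate 2 of the wild type came close, and the change was 0.59 ± 0.25, against 0.32, 0.24 and -0.09 for its other probe sets. Clpp, a matrix protease, was at 418, 384 and 462 in mutator and 509, 582 and 641 in wild-type replicates 1, 2 and 3, with the mutator below throughout and a change of -0.44 ± 0.21, against -0.09 for a second probe set. Regulators of mitochondrial biogenesis had a median of 0.24 over 12 genes, from -0.07 without wild-type replicate 1 to 0.40 without wild-type replicate 2. Pprc1, a coactivator of that program, had 0.68 ± 0.37. Mtfp1, which promotes mitochondrial fission, was at 230.2, 207 and 302 in mutator and 177, 115 and 148 in wild-type replicates 1, 2 and 3, a change of 0.69 ± 0.25 (interval 0.11 to 1.27) with no overlap.

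**Figure D4:**
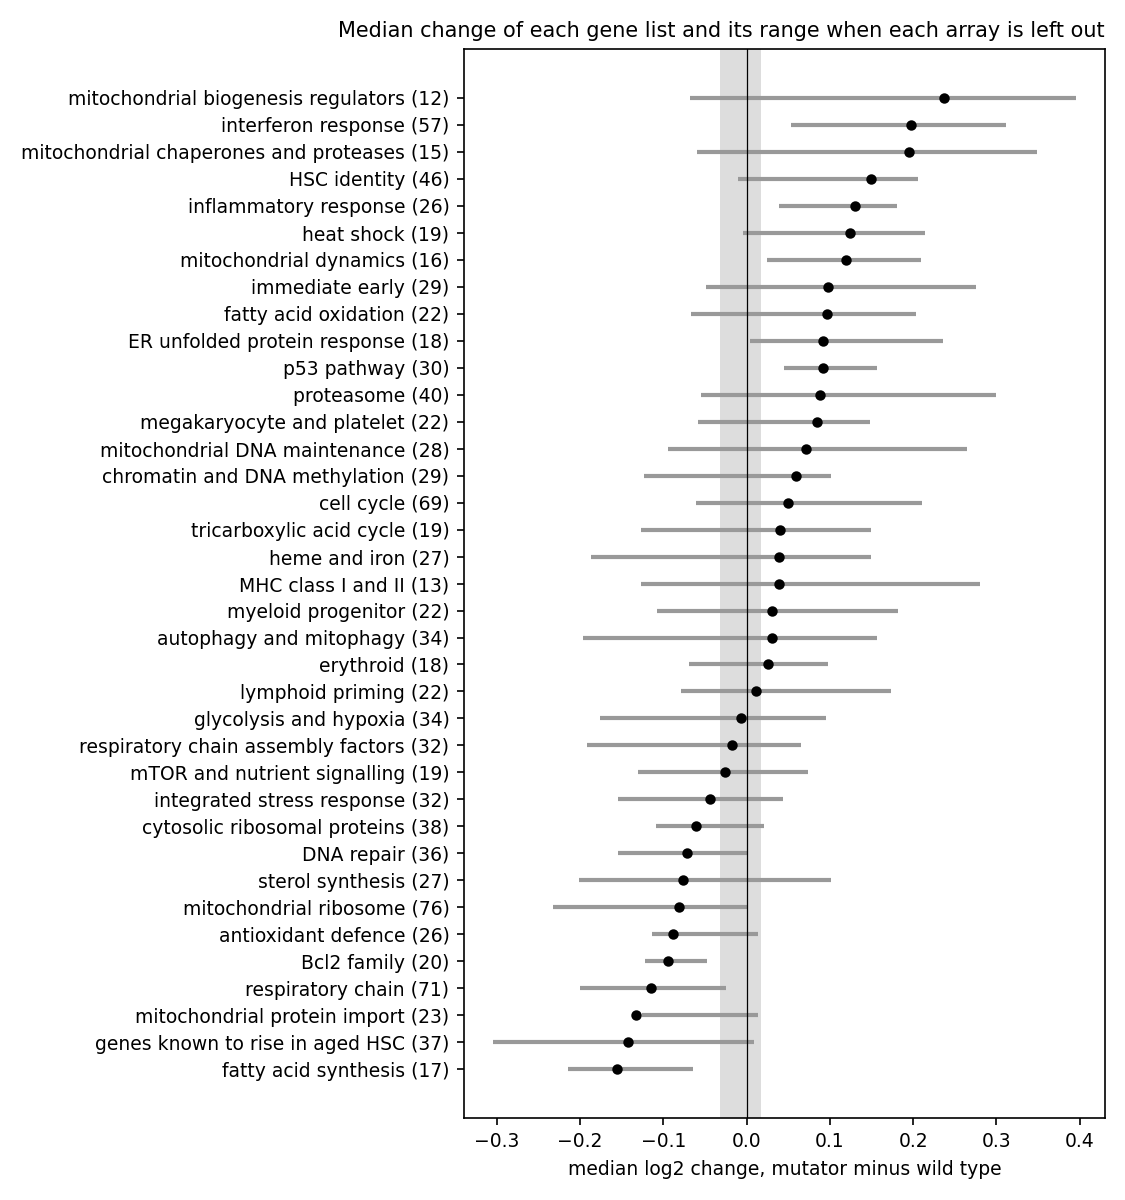
Points give the median log2 change (mutator minus wild type) of each gene list with at least 10 tested members, whose number is in brackets, and lines give the range of that median over the 6 fits without 1 array. The grey band is the same range for all 12915 genes, -0.03 to 0.02. The lines of most lists cross 0. Those that do not include the interferon response (0.05 to 0.31), respiratory chain (-0.20 to -0.02) and fatty acid synthesis (-0.21 to -0.06). The same holds for the inflammatory response (0.04 to 0.18), p53 pathway (0.04 to 0.16) and Bcl2 family (-0.12 to -0.05). It also holds for mitochondrial dynamics (0.02 to 0.21) and the unfolded protein response of the endoplasmic reticulum (0.004 to 0.24).

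The integrated stress response, by which mitochondrial faults raise amino acid and one-carbon enzymes through Atf4, had a median close to that of all genes. Of 32 tested genes 14 were above 0, the median was -0.04, and none had an unadjusted p under 0.05. Atf4 itself was at 2226, 3707 and 1693 in mutator and 2383, 2289 and 2052 in wild-type replicates 1, 2 and 3 (0.11 ± 0.31), and the 15 enzymes and transporters under its control had a median of -0.14, which was 0.02 without wild-type replicate 3 and 0.07 without mutator replicate 1. Ddit3 and Trib3, 2 further targets, had 0.05 ± 0.28 and 0.27 ± 0.26. Eif2ak3, a kinase that starts the response from the endoplasmic reticulum, was at 229, 240.3 and 219.8 in mutator and 175, 179 and 119 in wild-type replicates 1, 2 and 3, and Cebpg, a partner of Atf4, at 476, 448 and 415 in mutator and 225, 393 and 317 in wild-type replicates 1, 2 and 3. Both were above wild type on every mutator array, with changes of 0.52 ± 0.23 and 0.53 ± 0.25; other probe sets of Cebpg gave 0.01 and 0.51. The 95% interval lay within 1 log2 unit of 0 for 21 of the 32 genes (65.6%), near the 64% of all genes. Genes of the unfolded protein response of the endoplasmic reticulum had a median of 0.09 over 18 genes.

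Genes of fatty acid and sterol synthesis had medians below 0, with no call. Among 17 genes of fatty acid synthesis 4 were above 0 and the median was -0.16 (-0.21 to -0.06 with 1 array left out; 7 of 17 above 0 without wild-type replicate 3). An unadjusted p under 0.05 downward was found for 2 (11.8%, against 0.890% of all genes), Scd1 and the rate-limiting carboxylase of the pathway. The latter, Acaca, was at 212, 224 and 180.0 in mutator and 274, 271 and 393 in wild-type replicates 1, 2 and 3, with no overlap and a change of -0.55 ± 0.23. Srebf1, the transcription factor of the pathway, had -0.26 ± 0.22, and Fasn, the synthase itself, -0.28 ± 0.28. Among 17 enzymes of sterol synthesis 5 were above 0, and the groups did not overlap downward for 4 (23.5%, against 3%). Hmgcs1, which commits acetyl units to sterols, was at 899, 627 and 838 in mutator and 1267, 1205 and 1167 in wild-type replicates 1, 2 and 3, a change of -0.63 ± 0.22 (interval -1.14 to -0.11). The other 3 probe sets of Hmgcs1 above the filter gave 0.27, 0.05 and -0.30, so they do not share that value. Cyp51, a demethylase of the same pathway, had a change above 0 (0.95 ± 0.57), with wild-type replicate 2 inside the range of the mutator. Over all 27 genes of sterol synthesis the median was -0.08, and it was 0.10 without wild-type replicate 2. Regulators of sterol synthesis were above 0 for 5 of 6, but their median of 0.30 was -0.05 without wild-type replicate 1. Fatty acid oxidation genes were above 0 for 16 of 22 with a median of 0.10 (-0.07 without mutator replicate 3), and none had an unadjusted p under 0.05.

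Among 34 genes of glycolysis and hypoxia an unadjusted p under 0.05 was found for 1 upward and 1 downward (2.94% each). Among 27 genes of heme and iron it was found for 1 upward (3.7%), and among 26 of antioxidant defence for 0 in either direction. The shares over all genes were 1.43% upward and 0.890% downward. A share that rests on 1 member says little about its list. Slc16a1, which carries lactate and pyruvate across the membrane, was at 361, 282 and 331 in mutator and 131, 276 and 140.4 in wild-type replicates 1, 2 and 3, a change of 0.85 ± 0.31. Slc2a1, the main glucose transporter, was at 495, 398 and 358 in mutator and 616, 528 and 788 in wild-type replicates 1, 2 and 3, a change of -0.60 ± 0.24. Neither pair of groups overlapped, and over all 34 genes of glycolysis and hypoxia the median was -0.01. Slc40a1 (ferroportin, the iron exporter) was at 179, 129 and 208 in mutator and 34.7, 78.3 and 115 in wild-type replicates 1, 2 and 3, with the mutator above throughout and a change of 1.11 ± 0.37 (interval 0.26 to 1.97). The 13 genes of heme synthesis had a median of 0.06, which was -0.19 without mutator replicate 3. Of the antioxidant genes 11 were above 0 (median -0.09). Gpx1, a peroxidase that removes hydrogen peroxide, was at 2699, 2539.7 and 3227 in mutator and 3408, 3994 and 4308 in wild-type replicates 1, 2 and 3, with the mutator below throughout and a change of -0.47 ± 0.22. Autophagy and mitophagy genes had a median of 0.03 over 34 genes, and Lamp2, a protein of the lysosomal membrane, had 0.47 ± 0.24, with 0.43, -0.54 and 0.77 from its other probe sets.

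Of 46 tested genes of HSC identity 28 were above 0 with a median of 0.15, which was -0.01 without wild-type replicate 1 and 0.15 without wild-type replicate 3. Kit, the receptor for stem cell factor, was at 1248, 1119.6 and 2045 in mutator and 788, 1565 and 719.7 in wild-type replicates 1, 2 and 3; its groups overlapped, with a change of 0.55 ± 0.37 (interval -0.30 to 1.41). Slamf1, a marker used to sort HSC, had -0.04 ± 0.28 (0.42 from a second probe set), Procr, another marker, 0.15 ± 0.22, and Cd34, absent from the most dormant HSC, 0.30 ± 0.30. Flt3, a receptor of multipotent progenitors, was at 213, 183 and 229 in mutator and 119, 162 and 182 in wild-type replicates 1, 2 and 3, without overlap and with a change of 0.41 ± 0.23. The smallest p values in the list were those of Tcf15, a factor of HSC quiescence, Zfx, a factor of self-renewal, and Hoxb5. Tcf15 was at 209, 286 and 249 in mutator and 317, 464 and 579 in wild-type replicates 1, 2 and 3, below wild type throughout (-0.80 ± 0.27). Zfx, an X-linked gene, was at 712, 652 and 665 in mutator and 267, 600.4 and 340.4 in wild-type replicates 1, 2 and 3, above wild type throughout (0.80 ± 0.31), with wild-type replicate 2 close to the mutator. The other probe sets of Zfx gave 0.07, -0.13 and 0.55.

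Lists of blood lineage genes had medians near 0 over all 6 arrays, with single members of larger fitted change. The medians of the lymphoid (22 genes), myeloid (22), megakaryocyte (22) and erythroid (18) lists were 0.01, 0.03, 0.08 and 0.03. Without wild-type replicate 3 these medians were 0.17, 0.18, 0.15 and 0.01. Apart from Plac8, the myeloid list held Csf2rb, the shared receptor chain for several myeloid growth factors, at 283, 438 and 530.3 in mutator and 56.8, 203 and 309 in wild-type replicates 1, 2 and 3. Its groups overlapped, with wild-type replicate 1 lowest (1.28 ± 0.53), and a second probe set gave 0.33. Gfi1, a repressor needed for neutrophils and for HSC quiescence, had 1.22 ± 0.53, with overlapping groups. Id2, an inhibitor of E proteins, was at 249, 241 and 216 in mutator and 146, 191 and 70.6 in wild-type replicates 1, 2 and 3, above wild type throughout (0.82 ± 0.33). Gata1, the factor of red cells and megakaryocytes, was at 205, 228 and 292 in mutator and 171, 140.5 and 137 in wild-type replicates 1, 2 and 3, above wild type throughout (0.63 ± 0.23, interval 0.10 to 1.16). Its partner Zfpm1 was at 219, 339 and 363 in mutator and 409, 408 and 811 in wild-type replicates 1, 2 and 3, below wild type throughout (-0.75 ± 0.34). Rhag, an erythroid membrane protein near background, had 0.52 ± 0.22, and Bpgm, an enzyme of red cell metabolism, had -0.73 ± 0.30, with -0.42 and -0.13 from its other probe sets.

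Markers of other cells were set beside these values. Neutrophil RNA varied widely within both groups, which overlapped: S100a9 was at 41.3, 361 and 529 in mutator and 21.2, 156 and 287 in wild-type replicates 1, 2 and 3 and Ngp at 172, 1199 and 1430.5 in mutator and 119, 403 and 2434 in wild-type replicates 1, 2 and 3. Replicate 1 of each group was lowest for both. Markers of macrophages and monocytes summed to 414 to 445 in the mutator and 309 to 429 in the wild type over 12 genes, and C1qb, a complement chain of macrophages, had 0.74 ± 0.28 at intensities of at most 48.2. Markers of stroma and endothelium summed to 693 to 1428 in the mutator and 1305 to 2610 in the wild type over 11 genes, with Col1a2 part of that sum. Vwf, also a marker of platelet-biased HSC, supplied 318, 879 and 614 of it in mutator replicates 1, 2 and 3. In wild-type replicates 1, 2 and 3 Vwf supplied 456, 1065 and 2050. Of the 7 tested members 1 was above 0, Pdgfrb with a change of 1.085. The part of these cells in the changes of single genes was not tested.

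Of 69 cell cycle genes 37 were above 0, the median was 0.05, and none had an unadjusted p under 0.05. Tpx2, a spindle protein, had -0.69 ± 0.37, but its other probe sets above the filter gave 0.73 ± 0.48, -0.26 and -0.35. Cdt1, which licenses replication origins, had 0.43 ± 0.24. Among 30 genes of the p53 pathway 18 were above 0 (median 0.09), and Cdkn1a, the cell cycle inhibitor that p53 induces, was at 166, 124 and 134 in mutator and 77.0, 85.9 and 235 in wild-type replicates 1, 2 and 3 (0.23 ± 0.39, and -0.12 from a second probe set). Plk2, a p53-induced kinase, was at 169, 139.6 and 152 in mutator and 197, 313 and 192 in wild-type replicates 1, 2 and 3, below wild type throughout (-0.53 ± 0.25, and -0.28 from a second probe set). DNA repair genes had a median of -0.07 over 36 genes. Immediate early genes, which respond to cell handling within minutes, did not overlap upward for 4 of 29 (13.8%, against 3.17%): Ier3 had 0.73 ± 0.25 and Egr1 0.60 ± 0.27. Suz12, a subunit of the Polycomb repressive complex, was at 1231, 1125 and 959 in mutator and 705, 880.2 and 438 in wild-type replicates 1, 2 and 3, above wild type throughout (0.75 ± 0.29, and 0.24 to 0.65 from 5 other probe sets).

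The change in mutator HSC was finally set against the change with normal age. Over the 12 HSC arrays, the mutator change minus the change from young to old was tested as 1 contrast with limma, a test added after these data were seen. It was called for 60 of 12915 genes (0.465%), 53 (0.410%) with the mutator change below the age change and 7 (0.0542%) above it. The mutator and the age change had opposite signs for 45 of the 60, and 56 had an age change that was itself called. The mutator change was within 0.5 log2 units of 0 for 39 of the 60. Genes were called here for a difference between both changes, which favours opposite signs. The count of 45 is therefore a description only. The count of 60 ran from 20 without old replicate 1 to 135 without wild-type replicate 1. Ctse, a protease that marks old HSC, stood at 326 to 360.0 in young, 4258 to 4890.0 in old, 2871 to 5538 in wild-type and 3801 to 6151 in mutator HSC, so that both groups of 32 weeks were near the level of old HSC. Tm4sf1, a membrane protein of aged HSC, stood at 35.9 to 46.6 in young, 300.3 to 498.2 in old, 36.5 to 59.9 in wild-type and 25.6 to 36.4 in mutator HSC, so that both were near the level of young HSC. Of 37 tested genes known to rise in aged HSC, 18 were among the 60 (48.6%, against 0.465%). That list was chosen for its change with age, and its count is a description only.

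**Figure D5:**
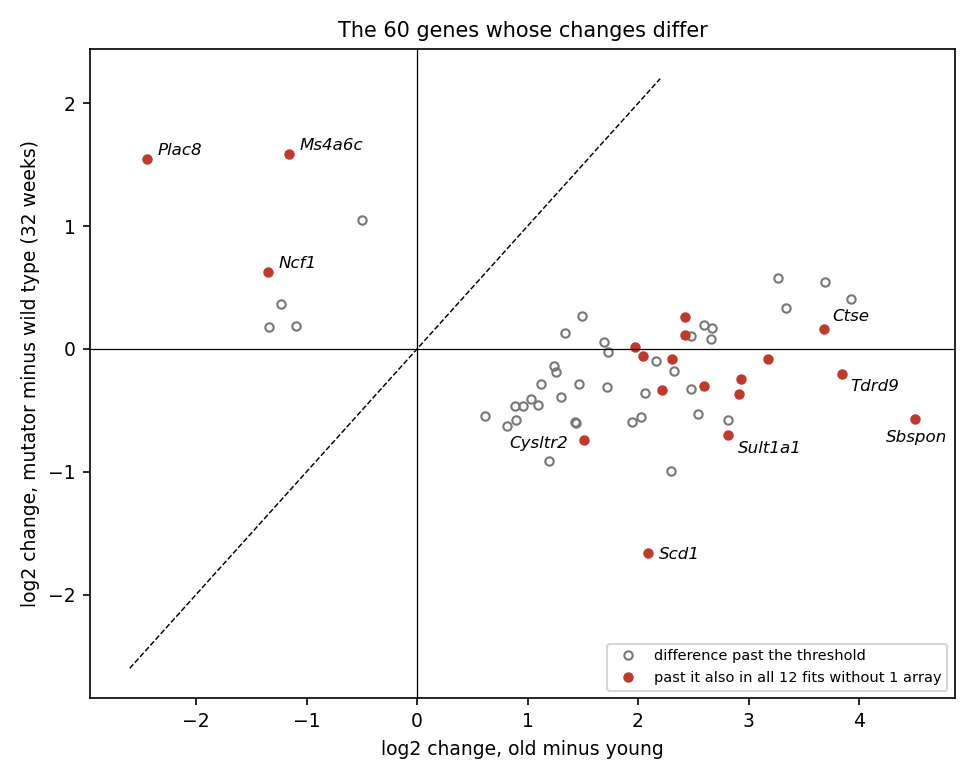
Points are the 60 genes whose mutator change differed from the change with age. The horizontal axis is the log2 change of old minus young HSC, the vertical axis that of mutator minus wild type at 32 weeks, and the dashed line marks equal changes. Filled points passed the threshold in all 12 fits without 1 array; Plac8, Ms4a6c and Scd1 lie farthest from the horizontal line at 0.

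For Plac8, Ms4a6c, Scd1 and Sult1a1 the fitted change with age had the opposite sign. Plac8 stood at 2041 to 3493 in young and 233 to 738 in old HSC, while the mutator arrays (1337 to 2121) lay above all old arrays and the wild-type arrays (444 to 730.1) in the range of old HSC. Only mutator replicate 3 reached the young range. The difference of the mutator change and the age change was 3.99 ± 0.54 (limma, adjusted p 0.00700). Ms4a6c stood at 136 to 183 in young and 48.7 to 69.7 in old HSC, with a difference of 2.75 ± 0.37 (adjusted p 0.00700). Scd1 stood at 68.2 to 86.1 in young and 311 to 465 in old HSC, and all mutator arrays were below all young arrays, with a difference of -3.75 ± 0.44 (adjusted p 0.00322). Sult1a1 stood at 317 to 369 in young and 2233 to 2617 in old HSC, with a difference of -3.51 ± 0.20 (adjusted p 1.69e-05). The change with age alone, old minus young, was -2.44 for Plac8, -1.16 for Ms4a6c, 2.09 for Scd1 and 2.81 for Sult1a1. That of Ms4a6c was not called (limma, adjusted p 0.064). The adjusted p values of the differences cover both changes together, and the mutator change alone was called for none of these genes. These 4 genes were among 19 whose difference was called with any of the 12 arrays left out. All 19 were first called on these same 12 arrays, so the kept calls are no independent evidence. Over the 6 arrays of 32 weeks, the list of genes known to rise with age had 12 of 37 above 0 and a median of -0.14, which ran from -0.30 without wild-type replicate 1 to 0.01 without wild-type replicate 3. Vwf, a marker of platelet-biased HSC in that list, was at 318, 879 and 614 in mutator and 456, 1065 and 2050.3 in wild-type replicates 1, 2 and 3 (-0.83 ± 0.57). The young and old arrays differ from those of 32 weeks in the actin ratio given above and in replicate spread, and the contrast uses 1 estimate of the spread for all 4 groups; the part of these differences in the result was not tested.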

How the data were processed

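RNA was measured on Affymetrix arrays. Values are intensities on a linear scale for 45101 probe sets, used as deposited; for the authors' background correction, summary and normalization the sources used here give no method. Of these, 34945 carry 1 gene symbol in the platform annotation, 932 several, 9160 none and 64 are controls. Arrays carry no read depth, and their number limits the precision. For each of 18193 genes the probe set of highest mean was kept, and 12915 genes above the 40th percentile of their array on at least 3 of the 6 arrays were tested. Group means of log2(intensity + 16) were compared by limma 3.58.1 under R 4.3.3 (lmFit, eBayes; Benjamini-Hochberg adjustment; calls at an adjusted p under 0.05), after a check on simulated data. With 3 arrays against 3, an exact two-sided permutation test cannot go below 0.1. Replicates are labelled biological.

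Genes are named by rule: the 12 of smallest p in each direction whose groups do not overlap, the 6 of largest change whose interval excludes 0, up to 3 of smallest p per list, and a set of mitochondrial and stem cell genes; any other was picked after its values were seen. The members and the 39 gene lists (1186 of 1314 symbols matched, markers included) were chosen with earlier results of these data known. Promoters are from RefSeq (GRCm38.p6).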

Additional observations from a re-analysis of the deposited data

How the results depend on the processing

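No gene was called in any of 21 alternatives: other normalizations, filters, pseudocounts (1 and 64) and probe set choices, robust fits, array weights, a replicate block, the actin ratio as covariate, all 12 HSC arrays, each array left out, and, added after seeing the data, the hybridisation controls as a block or without the arrays where they were high. The count of unadjusted p under 0.05 (300) became 463 with no filter, 523 with every probe set, 1441 with array weights, 931 with all 12 HSC arrays, 645 with the actin covariate and 568 with the hybridisation control block, and ran from 155 to 879 with each array left out. The 60 genes that differ from ageing became 359 with array weights and ran from 20 to 135 with each array left out. Same-numbered arrays of both groups correlated at 0.32, 0.08 and -0.07 in their deviations, and arrays of different number at -0.44 to 0.47. With 3 arrays per group these values cannot show whether the numbers mark a pairing or a batch. Replicate 1 of both groups shared the bright hybridisation controls given above. With the replicate number as a block 413 genes had an unadjusted p under 0.05.

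Of 112 named genes, 15 turned in sign in some alternative. With the mean of all probe sets Lpgat1 was at 0.13, Polg at -0.19, Slamf1 at 0.12 and Ddit3 at -0.034. With array weights Slamf1 was at 0.045, Ddit3 at -0.20, Cdkn1a at -0.27, Ifitm3 at -0.0011 and Ngp at -0.031. With the actin covariate Slamf1 was at 0.053 and Ddit3 at -0.081. Without the arrays of high hybridisation controls Slamf1 was at 0.12, Procr at -0.035, Ddit3 at -0.12, Cdkn1a at -0.14 and Ifih1 at -0.065. With each array left out, ND5 ran from -0.56 to 0.16, Polg from -0.084 to 0.65, Slamf1 from -0.22 to 0.22, Atf4 from -0.20 to 0.36, Ddit3 from -0.15 to 0.19, Cdkn1a from -0.030 to 0.68, Ifih1 from -0.21 to 0.47, Ifitm3 from -0.016 to 0.42, Mx1 from -0.14 to 0.41, Oas1a from -0.041 to 0.32, Xaf1 from -0.057 to 0.23, S100a9 from -0.0045 to 1.86 and Ngp from -0.55 to 1.54. The cause was not tested. Of 780 list medians under an alternative, 12 moved by over 1 SD. The 6 arrays leave changes under about 0.65 log2 units unresolved for a gene of median precision, by its unadjusted 95% interval. After adjustment over all genes larger changes were not called either, such as 1.55 for Plac8 and 1.92 for Ffar2.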
